A study of Homo sapiens with 19 samples.

Results

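The genes described here are 47 genes of the mitotic machinery: the cyclin-dependent kinase CDK1 with its cyclins, the Aurora and Polo-like kinases, the spindle checkpoint, the kinetochore, mitotic kinesins, spindle proteins, the anaphase-promoting complex machinery and cytokinesis. They were chosen by name, with earlier results of these data known. Each was read from a probe set that names this gene alone, the brightest over the 19 arrays where a gene has several. All 47 had such a probe set, of 19775 genes on the array that had one. All 47 also passed the filter on low signals, at least 3 arrays reaching a signal of 16.9, as did 12925 genes in all.

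The cells were SKBR3, an established line from a human breast tumour in which ERBB2 is amplified. Untreated cells gave 3 arrays, and no sort is named for them. Cells held in 60 nM epirubicin over 3 days, an anthracycline that poisons topoisomerase II, were sorted by flow cytometry on surface CD44 into CD44-/lo and CD44hi cells, with 4 arrays each. Cells held in 1% oxygen over 7 days were sorted in the same way, again with 4 arrays each. The CD44-/lo cells are called CD44lo here. All samples were this line kept in the same medium with serum, and the labels call them biological replicates but do not say whether each came from its own culture. The p-values therefore reflect only how far these samples spread, which may be technical. Treatment, its duration and the sort all differ between the sorted groups and the untreated cells and cannot be told apart. All 4 comparisons with untreated cells share the 3 untreated arrays.

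Mitosis is driven by CDK1 bound to cyclin B, with Aurora, Polo-like and NEK kinases that build the spindle and attach chromosomes to it. Unattached kinetochores hold the spindle assembly checkpoint on. Once it is satisfied, CDC20 directs the anaphase-promoting complex to destroy securin and cyclin B, separase opens cohesin, and kinesins and the central spindle carry out division. Transcripts of these genes accumulate from late S phase into mitosis and are low in resting cells. In bulk RNA, fewer cells in mitosis and less of a transcript in each cell cannot be told apart.

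Promoters of such genes often carry a CHR, an element bound by the DREAM and MuvB complexes, a short distance downstream of CCAAT boxes bound by NF-Y. The 110 bases before the annotated start of 9 of the genes are shown because these stretches hold the motifs that most of the group shares, and because they set genes with large changes beside genes with small changes. They are RefSeq sequences on GRCh38.p14, written 5′ to 3′ on the strand of the gene, and capitals mark the CHR core TTTGAA and the CCAAT box, read on either strand (TTCAAA and ATTGG on the other strand). The order is CCNB2 at chr15:59105036-59105145 (plus strand), PLK1 at chr16:23678779-23678888 (plus), CDC20 at chr1:43358871-43358980 (plus), HMMR at chr5:163460522-163460631 (plus), MKI67 at chr10:128126424-128126533 (minus), CKS2 at chr9:89311085-89311194 (plus), CKS1B at chr1:154974571-154974680 (plus), CCNB1 at chr5:69167040-69167149 (plus) and PTTG1 at chr5:160421745-160421854 (plus).
CCNB2: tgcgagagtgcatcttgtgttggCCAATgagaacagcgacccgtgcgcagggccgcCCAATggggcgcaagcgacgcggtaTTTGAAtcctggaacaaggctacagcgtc
PLK1: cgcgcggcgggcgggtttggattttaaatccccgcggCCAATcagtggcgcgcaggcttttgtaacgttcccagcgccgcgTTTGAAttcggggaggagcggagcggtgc
CDC20: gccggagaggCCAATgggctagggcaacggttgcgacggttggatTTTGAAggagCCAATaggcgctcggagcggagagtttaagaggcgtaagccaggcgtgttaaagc
HMMR: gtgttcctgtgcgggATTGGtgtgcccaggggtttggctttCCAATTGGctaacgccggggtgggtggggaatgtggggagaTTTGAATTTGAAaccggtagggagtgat
MKI67: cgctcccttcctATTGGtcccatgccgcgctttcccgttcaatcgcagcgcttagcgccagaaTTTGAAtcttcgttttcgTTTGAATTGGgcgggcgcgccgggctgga
CKS2: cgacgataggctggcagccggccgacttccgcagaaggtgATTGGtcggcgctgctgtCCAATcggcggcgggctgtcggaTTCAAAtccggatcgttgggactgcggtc
CKS1B: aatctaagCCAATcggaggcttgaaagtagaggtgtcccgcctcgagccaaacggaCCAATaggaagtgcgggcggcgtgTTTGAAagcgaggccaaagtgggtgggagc
CCNB1: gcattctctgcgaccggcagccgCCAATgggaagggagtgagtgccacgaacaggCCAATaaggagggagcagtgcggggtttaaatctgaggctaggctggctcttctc
PTTG1: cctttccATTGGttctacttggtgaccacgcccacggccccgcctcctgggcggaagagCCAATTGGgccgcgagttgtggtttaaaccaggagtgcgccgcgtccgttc
CCNB2, PLK1, MKI67 and CKS2 each have a CHR core that begins 29 bases before the start, HMMR has a pair that begin 28 and 22 bases before it, and CKS1B has one at 30 bases. CDC20 has its CHR core farther away, at 65 bases, between CCAAT boxes at 100 and 55 bases. CCNB1 and PTTG1 have CCAAT boxes, CCNB1 at 87 and 55 bases before the start, and no TTTGAA on either strand in this window.

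RefSeq promoters, each from 250 bases before to 50 bases after an annotated start, were found for 39 of the 47 genes, 43 promoters in all. No entry was found for TPX2, AURKA, BUB3, TTK, RACGAP1, UBE2C, FOXM1 and BIRC5. The CHR core was present in 32 of the 43 promoters (74.4%), against 15.2% of the 35116 promoters of the whole table. The CCAAT box was present in 35 of 43 (81.4%), against 34.6% of all promoters, and both motifs were present in 60.5%, against 5.9%. A CHR core that began within the last 50 bases before the start was found in 46.5% of these promoters and in 2.56% of all promoters. The median CHR match began 28 bases before the start and the median CCAAT match 74 bases before it. Overlapping matches were counted separately, 2 of the 43 CHR matches and 8 of the 74 CCAAT matches. A site that lay in the windows of neighbouring starts of a gene was counted at each start, as for the CCAAT boxes of PTTG1 and AURKB. Counted by gene, 30 of 39 (76.9%) had a CHR core, against 14.1% of the 10448 tested genes with an entry. Only the letters TTTGAA were searched, on either strand, so a CHR with other letters was not counted. The 9 genes without TTTGAA were AURKB, BUB1, CCNA2, CCNB1, CENPE, KIF20A, KIF2C, NEK2 and PTTG1. All 9 of these genes fell in both hypoxia groups, as given with the genes. DNA replication genes, which also fell after hypoxia, had a CHR core in 2 of the 33 genes with an entry (6.06%). Among other mitotic lists the CHR core was common too, in 14 of 23 other motors and regulators (60.9%), 9 of 16 genes of condensin, cohesin and chromosome structure (56.2%), 6 of 20 centrosome genes (30.0%), 5 of 17 genes of the anaphase-promoting complex (29.4%) and 7 of 24 other kinetochore genes (29.2%). A match describes the letters of the promoter and is neither a binding site nor a cause. The lack of a match says only that these letters are not in this window. The part of the motifs in the changes after hypoxia was not tested.

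**Figure D1:**
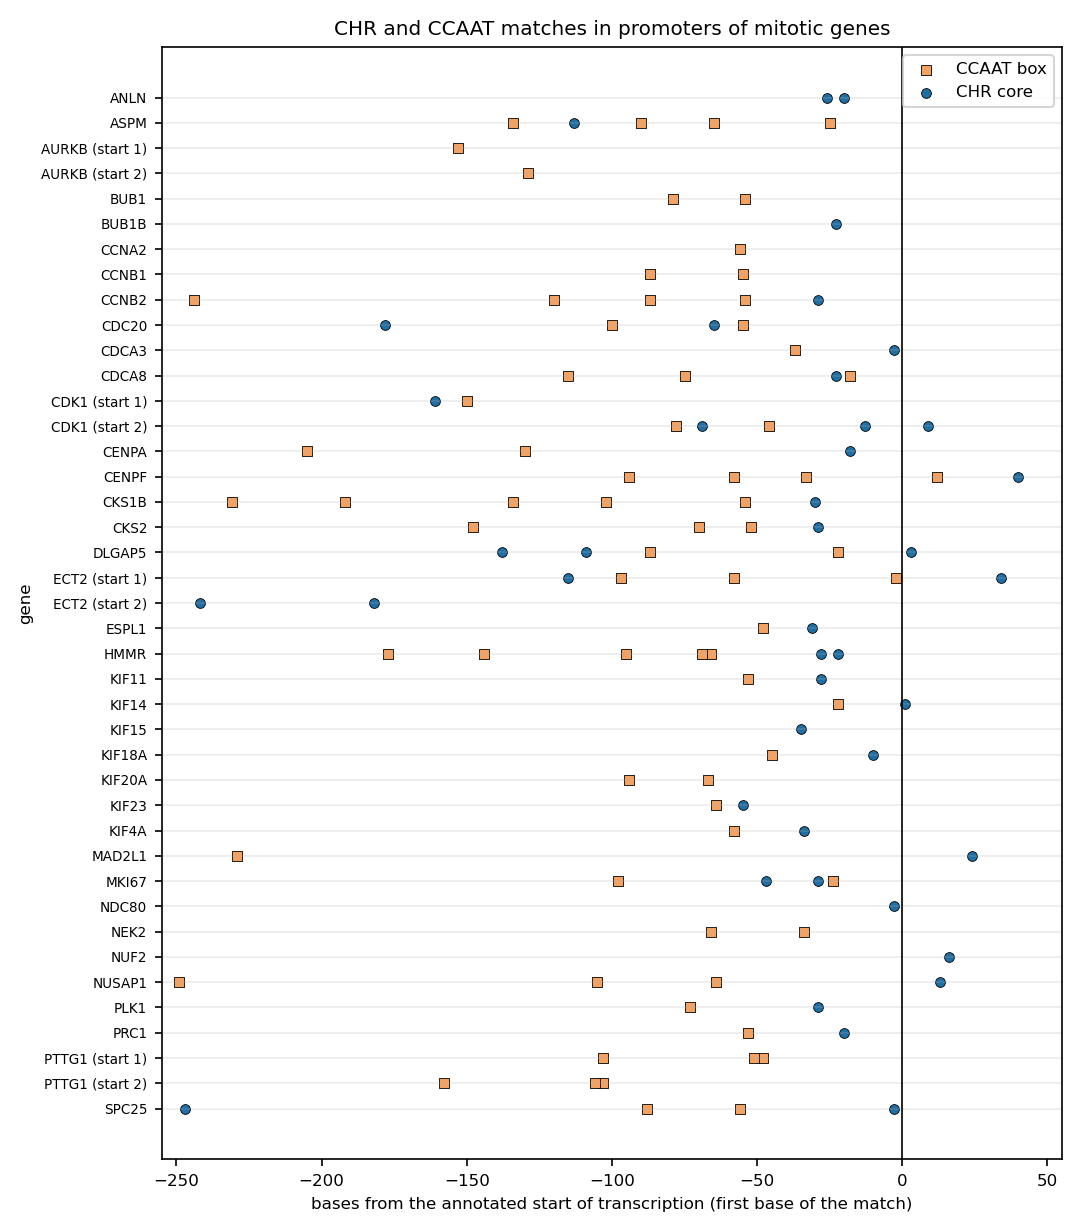
Position of each CHR core and CCAAT box, on either strand, in the promoters of the mitotic genes, with the annotated start of transcription at 0 and upstream bases negative. Promoters with no match are left out, genes with more than 1 start are drawn once for each, and the CHR matches gather just upstream of the start, with a median of 28 bases before it, nearer than the CCAAT matches at 74.

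The arrays had all been scaled to the same level, with trimmed means of 99.987 to 99.989, and the correlation between arrays within a group was r = 0.9189 to 0.9845 over the tested genes. ERBB2 signals were high on every array, from 2363.7 to 4195, and the keratins KRT8, KRT18 and KRT19 and EPCAM were high too, while CDH1 was low, from 2.3 to 35.4. GRB7, which lies beside ERBB2, had group means of 653 to 1220.1. SPDEF, a luminal transcription factor, varied most of these 8 line markers, with means of 389 untreated, 161 and 96.3 in epirubicin CD44lo and CD44hi cells and 161 and 70.7 in hypoxia CD44lo and CD44hi cells, and it was called lower in the last group (change -3.24, adjusted p 0.0115). Of the 8 line markers, 1 was called higher in epirubicin CD44hi and 1 in hypoxia CD44lo cells. Of the immune markers only CSF1R passed the filter, and the defining genes PTPRC, CD3E and CD14 had mean signals of at most 8.47 in any group. CSF1R was called higher in hypoxia CD44hi cells (change 1.45), where it reached 616 on an array, and it made up most of the immune sums that follow. The 6 immune markers summed to 100.7 to 128 per array in untreated cells, 137 to 272 and 129 to 522 in epirubicin CD44lo and CD44hi cells, and 173 to 250.2 and 143 to 634 in hypoxia CD44lo and CD44hi cells. The 6 stromal markers, of which COL1A1 alone passed the filter, summed to 33 to 85 over all groups. The 4 endothelial markers, of which 3 passed, summed to 54 to 57.6 untreated, 133 to 199.8 and 177 to 365 after epirubicin and 98.9 to 287 and 110.4 to 135 after hypoxia, in the same order of groups. CDH5 was called higher in all 4 sorted groups, and KDR, with means of 3.47 untreated and 54.4 in hypoxia CD44lo cells, was called higher in that group, where it reached 163 on an array. Their part in the results was not tested. CD44, the sort marker, was 7.53-fold higher in CD44hi cells after epirubicin and 13.8-fold higher in CD44hi cells after hypoxia than in untreated cells. Between CD44hi and CD44lo cells CD44 differed by 2.57 ± 0.65 (log2, 5.94-fold) after epirubicin and 2.90 ± 0.65 (7.46-fold) after hypoxia, and neither difference was called after adjustment over all genes (limma adjusted p 0.9998 and 0.386).

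After 7 days in 1% oxygen, transcripts from every role group of the 47 genes were lower than in untreated cells, most by more than 4-fold. All 47 genes fell in CD44lo cells, where 11.7% of all tested genes were called lower, and 45 fell in CD44hi cells, where 14.1% of all tested genes were called lower (limma, adjusted p under 0.05). The median log2 change was -2.64 in CD44lo cells and -2.75 in CD44hi cells, while the median of all tested genes was 0.02 and 0.00. In CD44lo cells 46 of the 47 fell at least 2-fold, 39 at least 4-fold and 5 at least 8-fold. In CD44hi cells 46 were at least 2-fold lower, 40 at least 4-fold and 13 at least 8-fold. Every hypoxia array lay below every untreated array for all 47 genes in both sorted groups, a pattern that 16.4% of all tested genes showed in CD44lo cells and 20.4% in CD44hi cells. The opposite pattern was found for 0 of the 47, against 15.2% and 18.5%. No gene of the 47 was called higher, against 10.7% and 12.8% of all tested genes. Folds are on the scale log2(signal + 4.2), which understates the change where a signal is low. On the hypoxia arrays 8 of 376 signals, from KIF14, KIF15, DLGAP5, TTK and ESPL1, were at or under 4.2, and KIF15 was under the filter of 16.9 on every hypoxia CD44hi array.

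**Figure D2:**
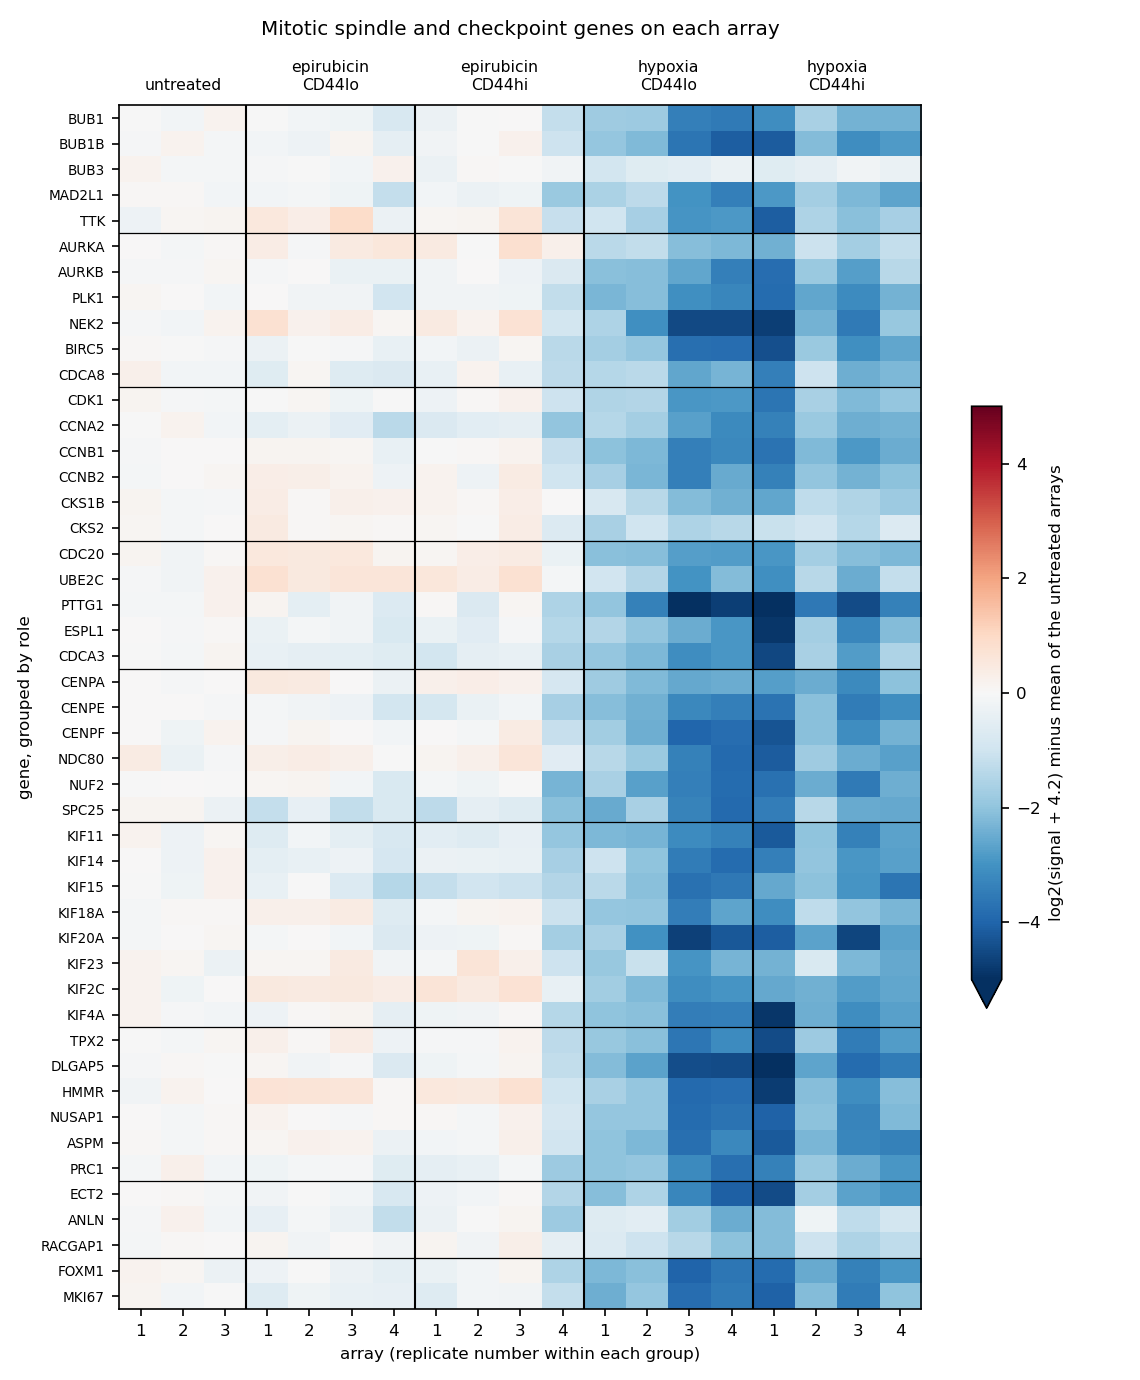
Each of the 47 mitotic genes (rows, grouped by role) on each of the 19 arrays (columns), coloured by log2(signal + 4.2) minus the mean of the 3 untreated arrays, blue for lower and red for higher, with colours ending at -5 and 5. The 8 hypoxia arrays are blue for nearly every gene, BUB3 being the palest row, while the epirubicin arrays are near 0 except the CD44hi array numbered 4.

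CDK1 is the kinase that triggers mitosis. Its signal was 951, 826 and 804 on the untreated arrays, 303, 309.7, 111 and 113.5 on the hypoxia CD44lo arrays and 65.2, 278, 181 and 219 on the hypoxia CD44hi arrays. The highest hypoxia array was therefore well under the lowest untreated array, and CDK1 fell by 2.18 ± 0.40 (log2) in CD44lo cells and by 2.35 ± 0.40 in CD44hi cells (limma adjusted p 0.000758 and 0.000249). Cyclin B1 (CCNB1), its main mitotic partner, had signals of 910.4, 963 and 952 untreated, 221, 194.5, 83.3 and 98 in hypoxia CD44lo and 68.1, 201, 124 and 167 in hypoxia CD44hi cells. That was a fall of 6.69-fold and 7.03-fold, with the untreated arrays within a narrow range. CCNB2, the other B-type cyclin, fell 5.55-fold and 5.41-fold by its brightest probe set. Cyclin A2 (CCNA2), which acts in S phase and at mitotic entry, fell 4.76-fold and 5.71-fold.

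The small CDK-binding subunits CKS1B and CKS2 moved less than the kinase and cyclins. CKS2 signals were 1735.5, 1539 and 1660.3 untreated, 527, 822, 560.3 and 629 in hypoxia CD44lo and 762, 841, 609.9 and 1017 in hypoxia CD44hi cells, without overlap. Its change was -1.39 ± 0.21 (SE) and -1.04 ± 0.21 on the log2 scale, in CD44hi cells the smallest change of the 47 genes after that of BUB3. CKS1B, which also serves the ubiquitin ligase that removes p27, changed by -1.69 ± 0.30 and -1.81 ± 0.30. Both have a CHR core close to the start in the sequences shown, as CCNB2 and PLK1 do, whose changes were larger. The part of the motif in the size of a change was not tested.

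Among the mitotic kinases, PLK1, which acts in spindle assembly and cytokinesis, had signals of 229, 217 and 196 untreated, 40.8, 45.9, 21.9 and 18.6 in hypoxia CD44lo and 10.9, 32.1, 20.7 and 38.6 in hypoxia CD44hi cells. The highest hypoxia array, CD44lo array 2, was far below the lowest untreated array, and the changes were -2.68 ± 0.36 and -2.98 ± 0.36. NEK2, a kinase that separates centrosomes, fell furthest of the kinases, from 766, 714 and 906 to 271, 89.7, 30.4 and 30.6 in CD44lo and 26.2, 149, 63.8 and 213 in CD44hi cells. Its hypoxia values were widely spread, yet all were below the untreated ones, and the falls were 10.7-fold and 8.74-fold. Aurora A (AURKA), the centrosomal kinase, kept more of its signal, at 2803, 2601 and 2894.5 untreated, 1079.9, 1184, 625 and 575.5 in hypoxia CD44lo and 526, 1312, 837 and 1205 in hypoxia CD44hi cells. It fell 3.34-fold and 3.02-fold.

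Aurora B (AURKB) is the kinase of the chromosomal passenger complex, which corrects faulty attachments, and survivin (BIRC5) and borealin (CDCA8) are its targeting subunits. AURKB fell 5.88-fold in CD44lo and 5.48-fold in CD44hi cells, and BIRC5 fell 6.97-fold and 7.87-fold. CDCA8 changed less, by -1.93 ± 0.44 and -2.28 ± 0.44. All 6 genes of the kinase and passenger group fell in both fractions, with medians of -2.62 and -2.72. A second, dimmer probe set of AURKB gave a smaller change in CD44hi cells, -1.36, which was not called (adjusted p 0.0599). That probe set was not called against the epirubicin groups either, at -1.003 in CD44lo (adjusted p 0.177) and -0.92 in CD44hi cells (0.211).

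The spindle assembly checkpoint genes fell, except that BUB3 was called in CD44lo cells only. BUB1B (BubR1), a component of the complex that inhibits CDC20, fell from 254, 299 and 244 to 67, 53.9, 17 and 11.3 in hypoxia CD44lo and 11, 55.3, 26.9 and 33.6 in hypoxia CD44hi cells. The falls were 7.87-fold and 8.37-fold, and the groups lay far apart. BUB1, the kinetochore kinase, fell 6.23-fold and 5.15-fold, and MAD2L1 (Mad2) fell 5.00-fold and 5.17-fold. TTK (Mps1), the kinase that starts checkpoint signalling, changed by -2.12 ± 0.55 and -2.36 ± 0.55, with an array in CD44hi cells at a signal of 0.8, under the offset.

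BUB3, the adaptor that brings BUB1 and BUB1B to kinetochores, moved least of all 47 genes. Its signals were 888, 746 and 748 on the untreated arrays, 413, 523, 554 and 621 on the hypoxia CD44lo arrays and 516, 582, 694.5 and 622.5 on the hypoxia CD44hi arrays. The groups did not overlap, but the highest hypoxia array was only just under the lowest untreated array. The change was -0.60 ± 0.15 in CD44lo cells (adjusted p 0.00834) and -0.40 ± 0.15 in CD44hi cells (adjusted p 0.0586, not called). Both calls turned with the processing: with the mean of all its probe sets BUB3 was called in CD44hi cells (adjusted p 0.0486) and not in CD44lo cells (0.0658), and without untreated array 1 it was not called in CD44lo cells (0.0585).

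At the kinetochore, all 6 genes fell in both fractions, with medians of -2.82 and -2.87. CENPF, a large protein of the outer kinetochore, fell from 917, 789 and 1031 to 268, 166, 54 and 60.7 in hypoxia CD44lo and 41, 211, 102 and 173 in hypoxia CD44hi cells. The falls were 7.93-fold and 7.83-fold. CENPE, the kinetochore motor that moves chromosomes to the spindle equator, fell 6.96-fold and 8.51-fold. NDC80, NUF2 and SPC25 are subunits of the NDC80 complex, which binds microtubules directly. Their changes were close to each other in CD44lo cells, at -2.63 ± 0.51, -2.91 ± 0.51 and -2.84 ± 0.48, and were -2.77 ± 0.51, -3.05 ± 0.51 and -2.48 ± 0.48 in CD44hi cells. CENPA, the histone variant that marks the centromere, fell 4.78-fold and 6.17-fold by a probe set of a kind that can share probes with other genes.

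All 8 mitotic kinesins fell in both fractions, with medians of -2.64 and -2.78. KIF20A, which carries the passenger complex to the central spindle, fell furthest, from 301, 330 and 347 to 103, 35.7, 8.7 and 13.1 in CD44lo and 14.9, 47.8, 9.3 and 48 in CD44hi cells. That was 10.5-fold and 11.4-fold. KIF11 (Eg5), which pushes spindle poles apart, fell 6.80-fold and 8.39-fold, and KIF2C, which takes apart microtubules at centromeres, fell 5.65-fold and 6.04-fold. KIF23, the motor of the centralspindlin complex, moved least of the 8, at -2.07 ± 0.43 and -1.98 ± 0.43. The chromokinesin KIF4A, KIF14, KIF15 and KIF18A changed by -2.74, -2.60, -2.68 and -2.50 in CD44lo cells and by -3.28, -2.75, -2.80 and -2.16 in CD44hi cells.

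All 6 spindle microtubule proteins fell in both fractions, with medians of -2.81 in CD44lo and -3.09 in CD44hi cells. DLGAP5 (HURP), which stabilises microtubules near chromosomes, went from 262, 282 and 265.5 to 56.6, 38.3, 8.6 and 8.1 in CD44lo and 0.2, 39.8, 15 and 20.1 in CD44hi cells. The falls were 10.8-fold and 15.8-fold, the second largest of the 47 genes in each fraction. HMMR, a hyaluronan-binding protein that also acts at spindle poles, went from 205, 268 and 236 to 73.9, 58.9, 12 and 13 in CD44lo and 4.7, 49.8, 23.9 and 50.4 in CD44hi cells, a fall of 6.98-fold and 8.16-fold. TPX2, the activator of Aurora A on the spindle, fell 6.43-fold and 8.85-fold. ASPM, NUSAP1 and PRC1, the last a bundler of the central spindle, fell between 6.30-fold and 9.73-fold over both fractions.

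Securin (PTTG1), the inhibitor of separase, fell furthest of all 47 genes in both fractions. Its signals were 982, 981 and 1216 untreated, 264, 98.5, 22 and 35.8 in hypoxia CD44lo and 11.9, 85.3, 43 and 98.9 in hypoxia CD44hi cells. The highest hypoxia array was CD44lo array 1, and every other hypoxia array was under 100. The falls were 14.4-fold and 20.6-fold (-3.85 ± 0.63 and -4.36 ± 0.63, adjusted p 0.000227 and 4.8e-05). Its only probe set can share probes with near-identical copies of the gene, so how much of the signal is PTTG1 itself is uncertain. Separase (ESPL1) fell 4.64-fold and 7.98-fold. CDC20, the activator that checkpoint proteins hold back, went from 352, 285.5 and 336 to 72.9, 70.9, 44 and 43.1 in CD44lo and 38.9, 97.7, 71.3 and 65.1 in CD44hi cells, with the smallest adjusted p of the 47 genes in CD44lo cells (3.35e-06). UBE2C, the ubiquitin-conjugating enzyme of the complex, kept more of its signal, at 1059.7, 991 and 1286 untreated against 571, 394, 137.5 and 246 in CD44lo and 129.7, 424, 196 and 484 in CD44hi cells, a fall of 3.70-fold and 4.05-fold. CDCA3, a factor of mitotic entry, fell 5.84-fold and 6.19-fold.

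The cytokinesis genes differed in the size of their change. ECT2, the exchange factor that switches on RhoA at the equator, fell 6.73-fold and 7.62-fold. RACGAP1, the centralspindlin subunit that activates it, changed by only -1.29 ± 0.26 and -1.51 ± 0.26, although its hypoxia signals of 729, 573, 444.5 and 283 in CD44lo and 262, 572, 398.5 and 482 in CD44hi cells were all under the untreated 1118, 1227.5 and 1201. Anillin (ANLN), the scaffold of the contractile ring, had signals of 1468, 1781 and 1419 untreated, 1001, 1084, 457 and 272 in hypoxia CD44lo and 342.5, 1316, 644 and 814 in hypoxia CD44hi cells. The groups did not overlap, but hypoxia CD44hi array 2 was close to the untreated range, and the spread was wide. ANLN was called in CD44lo cells (change -1.34 ± 0.48, adjusted p 0.0483) and not in CD44hi cells (change -1.14 ± 0.48, adjusted p 0.083). The call in CD44lo cells was lost without any single one of the 3 untreated arrays or without hypoxia CD44lo array 3 or 4, at adjusted p values of 0.0915 to 0.168. It was also lost with an offset of 1 (0.05004), no filter on low signals (0.0625), no variance trend (0.0723) and the hybridisation controls as a covariate (0.104). In CD44hi cells ANLN was called once array 2 was left out (0.0295).

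FOXM1, a transcription factor of mitotic genes, went from 291, 276 and 206 to 49.7, 56.5, 11.8 and 16.7 in hypoxia CD44lo and 14, 40.8, 20.5 and 29.9 in hypoxia CD44hi cells. It fell 8.01-fold and 8.99-fold. MKI67, which encodes the proliferation antigen Ki-67, went from 653, 540.5 and 587.5 to 107, 152, 38.5 and 47.8 in CD44lo and 31.7, 129, 49.3 and 145 in CD44hi cells. It fell 7.56-fold and 7.58-fold, with no overlap.

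**Figure D3:**
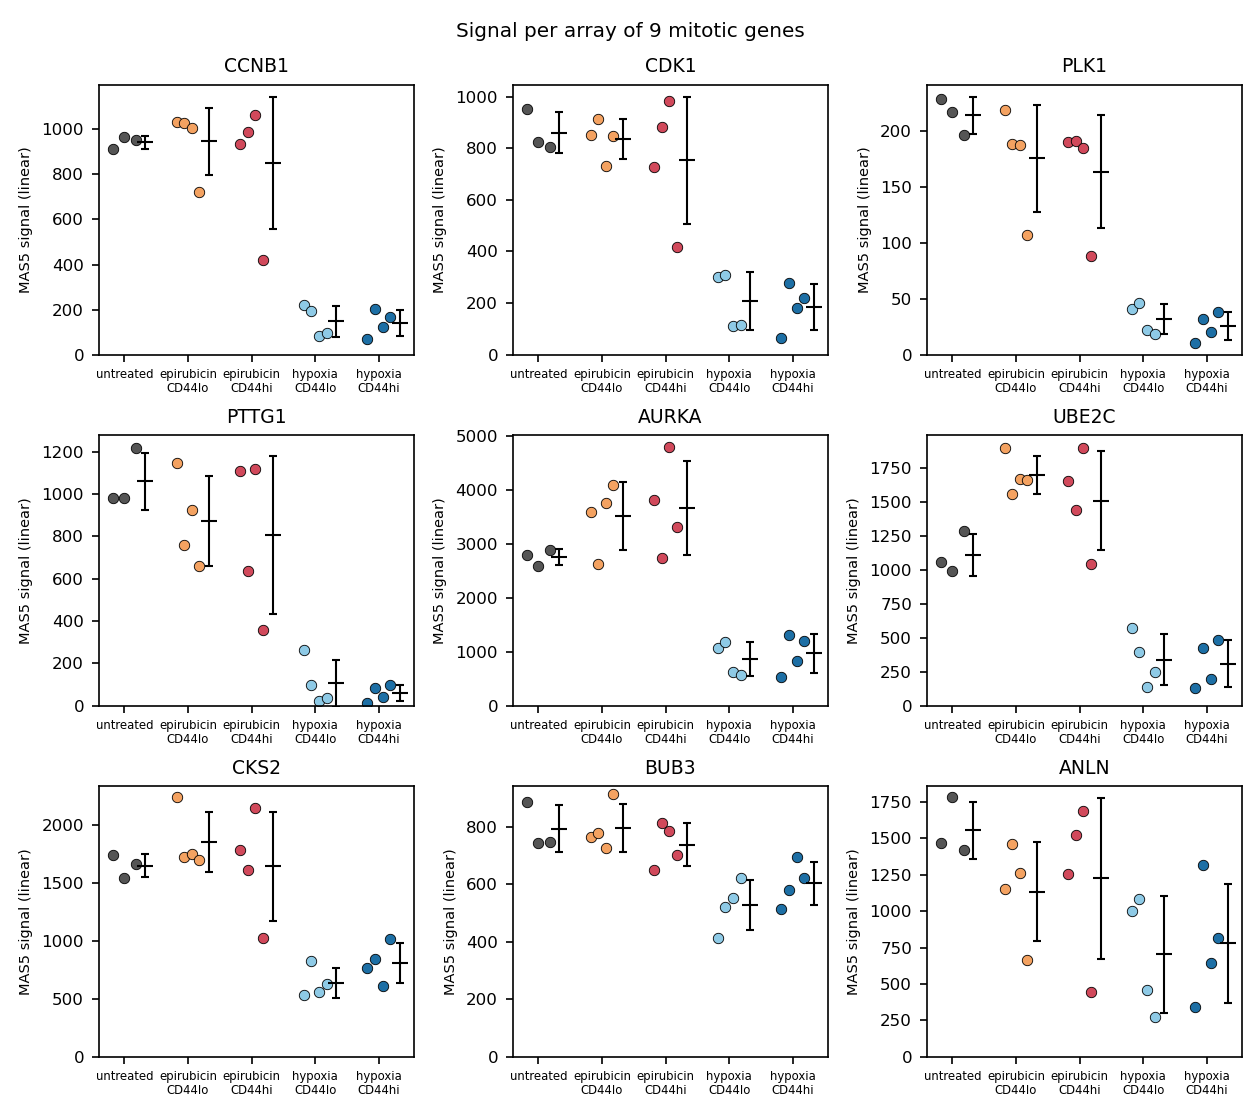
Deposited signal (linear scale from 0) of 9 mitotic genes on each array, 3 untreated and 4 in each sorted group, with the group mean and SD to the right of the points. CCNB1, CDK1, PLK1 and PTTG1 sit far below the untreated arrays after hypoxia, AURKA, UBE2C and CKS2 fall less, and the BUB3 and ANLN hypoxia points come close to the untreated ones.

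After 3 days in epirubicin none of the same genes passed the test against untreated cells. Of the 47 genes, 0 were called in CD44lo cells, where 2.82% of all tested genes were called (0.565% lower and 2.26% higher), and 0 in CD44hi cells, where 6.42% were (1.79% lower and 4.63% higher, limma). At an unadjusted p under 0.05 there were 0 in CD44lo cells and 3 in CD44hi cells, KIF15, SPC25 and CCNA2. The median log2 change was -0.15 in CD44lo cells, with 29 of the 47 below 0, and -0.31 in CD44hi cells, with 39 below 0. The precision was limited, with a median SE of 0.44. The widest 95% interval in CD44hi cells, that of PTTG1, ran from -1.83 to 0.775, and the lowest bound was -2.17, for KIF15. Changes of several-fold therefore lay within the intervals of the most variable genes. CDK1 had signals of 852, 915, 732 and 846 in CD44lo and 727, 882, 985 and 417 in CD44hi cells after epirubicin, around the untreated 951, 826 and 804 except for CD44hi array 4. CCNB1 had 1030, 1028, 1005 and 722 in CD44lo and 937, 987, 1063 and 418 in CD44hi cells, again with array 4 lowest in each fraction.

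UBE2C had the highest change of the group after epirubicin in both fractions. Its signals were 1896, 1562, 1672 and 1664 in CD44lo cells, all above the untreated arrays, and 1654, 1443, 1901 and 1040.5 in CD44hi cells, which overlapped them. The changes were 0.61 ± 0.40 (adjusted p 0.43) and 0.41 ± 0.40 (0.562). CDC20 and KIF2C also had all 4 CD44lo arrays above all untreated arrays, as did 13.4% of all tested genes, with changes of 0.41 ± 0.25 and 0.45 ± 0.29. AURKA was at 3590.1, 2639.9, 3772 and 4099 in CD44lo and 3815, 2752, 4804 and 3314 in CD44hi cells, changes of 0.33 ± 0.28 and 0.38 ± 0.28. HMMR was at 382, 375, 364.5 and 246 in CD44lo and 343, 327, 400.1 and 115 in CD44hi cells, changes of 0.51 ± 0.58 and 0.19 ± 0.58. None of these changes in UBE2C, CDC20, KIF2C, AURKA and HMMR was called.

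SPC25, KIF15 and CCNA2 were lowest after epirubicin. SPC25 was at 117, 207, 114.5 and 162 in CD44lo and 110.3, 203, 175 and 61.8 in CD44hi cells against 303, 308 and 226 untreated, all below the untreated range. Its changes were -0.90 ± 0.48 and -1.12 ± 0.48 (adjusted p 0.324 and 0.164). KIF15 was at 44.5, 58.1, 35.5 and 19.3 in CD44lo and 23.9, 28.9, 26.4 and 18.7 in CD44hi cells against 59, 51.3 and 69.4 untreated, changes of -0.63 ± 0.48 and -1.16 ± 0.48 (adjusted p 0.511 and 0.152). In CD44hi cells its 4 arrays lay below all untreated arrays. CCNA2 was at 527.5, 605, 498 and 283 in CD44lo and 444, 507.5, 534 and 185 in CD44hi cells against 723, 823 and 661 untreated, changes of -0.66 ± 0.41 and -0.91 ± 0.41. Every epirubicin array of CCNA2 was under the lowest untreated one. In all, 7 genes in CD44lo and 10 in CD44hi cells had every epirubicin array below every untreated array, against 10.5% and 12.6% of all tested genes. No gene of the 47 had every CD44hi array above every untreated array, as 13.0% of all tested genes did.

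Some of these calls depended on the model. The 5 groups share an estimate of the spread, to which the variable hypoxia arrays contribute. When only the 2 groups being compared were fitted, SPC25 (adjusted p 0.0230) and CDCA3 (0.0453) were called lower and UBE2C (0.0130) higher in epirubicin CD44lo cells, and KIF15 (0.0136) lower in CD44hi cells.

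The epirubicin arrays numbered 4 stood apart. CD44hi array 4 had the lowest signal of its group for 45 of the 47 genes, and CD44lo array 4 for 38. The mean of the 47 genes, as log2 difference from the untreated mean, was 0.00, 0.03, -0.03 and -0.42 on the epirubicin CD44lo arrays and -0.15, -0.09, 0.11 and -1.16 on the CD44hi arrays. The ACTB ratio of 3′ to 5′ signal, which rises as RNA degrades, was highest on these arrays, 1.71 and 1.85, against 1.24 ± 0.03 (SD, n = 3) untreated. The next highest ACTB ratio, 1.54, was on CD44hi array 3, where the mean of the 47 genes was highest. The same ratio for GAPDH was not raised on the arrays numbered 4, at 0.73 and 0.74, against 0.80 to 0.90 untreated. The part of RNA quality in these values was not tested. Without both arrays the median changes were -0.05 in CD44lo and -0.07 in CD44hi cells, with 0 genes called. With the signal of the bacterial hybridisation controls as a covariate the medians turned to 0.17 and 0.19, again with 0 called.

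**Figure D4:**
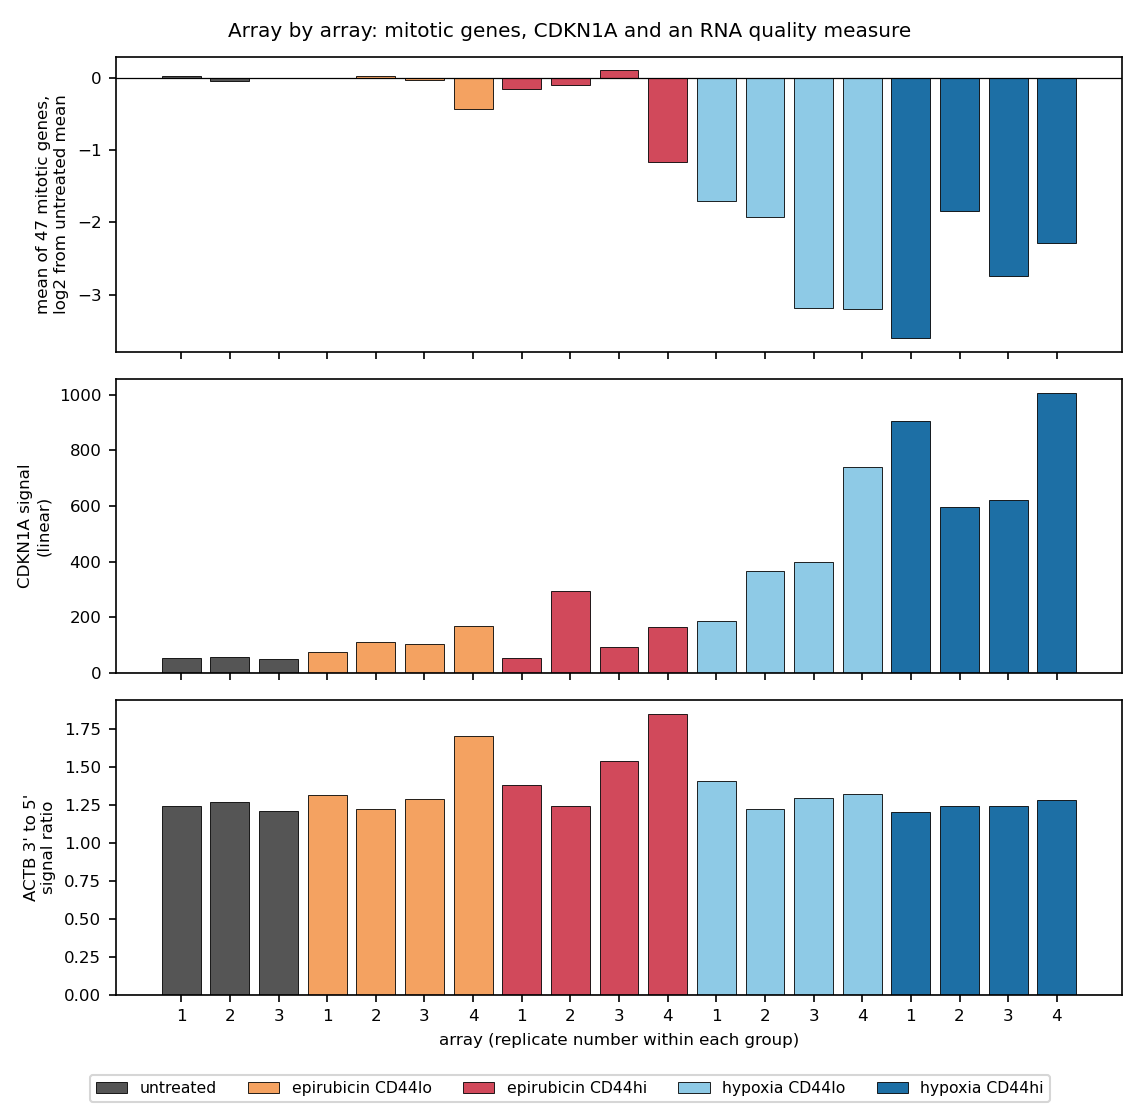
Each of the 19 arrays in group order, with the mean log2 difference of the 47 mitotic genes from the untreated mean (top), the linear signal of CDKN1A (middle) and the ratio of 3′ to 5′ signal of ACTB (bottom). The hypoxia arrays range from -1.70 to -3.61 in the top panel, and the epirubicin array with the lowest mean, at -1.16, also has the highest ACTB ratio, 1.85. Epirubicin CD44hi array 3, with the highest mean, at 0.11, has an ACTB ratio of 1.54.

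The hypoxia arrays also differed among themselves. The mean of the 47 genes was -1.70, -1.93, -3.19 and -3.20 on the CD44lo arrays and -3.61, -1.84, -2.74 and -2.28 on the CD44hi arrays, an SD of 0.80 and 0.75 against 0.03 among untreated arrays. CD44hi array 1 had the lowest signal of its group for 41 of the 47 genes, and CD44hi array 2 the highest for 34. In CD44lo cells array 1 was highest for 33 genes, and arrays 3 and 4 were lowest for 23 and 22. The ACTB ratio on the hypoxia arrays was 1.20 to 1.41, and 1.20 on CD44hi array 1, where the mitotic genes were lowest. CD44 signals on the CD44lo arrays were 87.5, 20.5, 256 and 456, higher on arrays 3 and 4, where the mitotic genes were lowest, and on the CD44hi arrays they were 1050.3, 487, 972 and 1658. The part of CD44 and of CDKN1A in the spread was not tested. CDKN1A, the p53 target that inhibits cyclin-dependent kinases, had signals of 187, 366, 398 and 742 on the CD44lo arrays and 904, 597, 621 and 1008 on the CD44hi arrays, against 49.8 to 56.9 untreated. It rose 6.55-fold and 13.1-fold after hypoxia, and after epirubicin its change was 0.98 ± 0.43 and 1.16 ± 0.43, not called. Without the hypoxia arrays numbered 2, 47 genes in CD44lo and 46 in CD44hi cells were called lower, with medians of -2.88 and -3.02.

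Set directly against the epirubicin groups, the hypoxia groups were lower too. Of the 47 genes 46 were lower in hypoxia CD44lo than in epirubicin CD44lo cells, where 9.84% of all tested genes were called lower, and 45 in hypoxia CD44hi than in epirubicin CD44hi cells, where 10.2% were. Called higher were 0 genes in each, against 7.08% and 8.0% of all tested genes. The median differences were -2.48 and -2.37. The agents and their durations, 7 and 3 days, cannot be told apart here. NEK2 and PTTG1 had the largest differences between CD44lo groups, -3.77 ± 0.56 and -3.55 ± 0.58, and PTTG1 and DLGAP5 between CD44hi groups, -3.83 ± 0.58 and -3.65 ± 0.55. KIF2C and CDC20, which were a little above untreated after epirubicin, differed by -2.95 ± 0.27 and -2.85 ± 0.24 in CD44lo cells, CDC20 with the smallest adjusted p of the group, 1.24e-07. Not called were ANLN in both fractions (adjusted p 0.213 and 0.349) and BUB3 in CD44hi cells (0.164). The BUB3 call in CD44lo cells was lost with the mean of its probe sets (adjusted p 0.0706) and with its second probe set (0.224), and AURKB was not called in either fraction by its second probe set (0.177 and 0.211).

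Arrays of the hypoxia and epirubicin groups did not overlap for 45 of the 47 genes in CD44lo cells, against 10.2% of all tested genes lower in this way, the exceptions being KIF15 and ANLN. In CD44hi cells 39 of 47 did not overlap, against 9.73%, and the 8 that did were BUB3, CCNA2, KIF23, SPC25, MAD2L1, ANLN, CDCA8 and CDCA3. For all 8 except BUB3, where it was array 1, epirubicin CD44hi array 4 reached into the hypoxia range (with array 1 for ANLN), as for CCNA2 with 444, 507.5, 534 and 185 after epirubicin and 66.3, 201, 131 and 138 after hypoxia. No gene of the 47 had every hypoxia array above every epirubicin array, as 7.33% of all tested genes did in CD44lo and 8.24% in CD44hi cells. Single arrays decided some of the weaker calls: CDCA8 was not called between CD44lo groups without epirubicin CD44lo array 2 (adjusted p 0.0553) or hypoxia CD44lo array 3 (0.0604), SPC25 was not called between CD44hi groups without epirubicin CD44hi array 1, 2 or 3 or hypoxia CD44hi array 1, 3 or 4 (0.0601 to 0.142), and KIF15 was not without hypoxia CD44hi array 4 (0.0556).

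In a fit that did not pair the arrays, no difference between CD44hi and CD44lo cells of the same treatment was detectable in these genes. A fit with a replicate block within each treatment, which pairs arrays by number, called none of them either. The values that follow are from the unpaired fit. After epirubicin 0 of the 47 genes were called, where 0.0232% of all tested genes were, and 0 had an unadjusted p under 0.05. The median difference of CD44hi from CD44lo cells was -0.21, with 44 of 47 below 0. It was -0.04 without the arrays numbered 4 and turned to 0.08 without CD44hi array 4 alone. After hypoxia 0 were called, where 0.0% of all tested genes were, 0 had an unadjusted p under 0.05, and the median difference was -0.12, with 33 of 47 below 0. Its sign turned with single arrays, the median being 0.23 without CD44hi array 1, 0.17 without CD44lo array 1 and 0.07 without CD44lo array 2. ESPL1 (-0.78 ± 0.48), KIF4A (-0.54 ± 0.43) and DLGAP5 (-0.54 ± 0.55) had the largest differences after hypoxia of the 47 genes. For 0 of the 47 genes did the arrays of CD44hi and CD44lo cells lie apart in either treatment, while 0.975% of all tested genes had every CD44hi array below every CD44lo array after epirubicin and 0.766% above, and 1.4% and 1.28% after hypoxia. How the CD44 difference itself differed between hypoxia and epirubicin was tested too, and 0 genes were called, with the lowest adjusted p at 0.9997 and 0 at an unadjusted p under 0.05. The median SE of these differences was 0.40 within a treatment and 0.57 for the difference between treatments, and the number of arrays limits what could be detected: CD44 itself, 5.94-fold and 7.46-fold higher in CD44hi cells, was not called either.

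Other lists of the mitotic apparatus, which hold none of the 47 genes, are read here against the share of all tested genes called lower after hypoxia, 11.7% in CD44lo and 14.1% in CD44hi cells. Of 29 other measured mitotic motors and regulators, 25 fell in hypoxia CD44lo and 26 in CD44hi cells, with medians of -2.23 and -2.30, among them DEPDC1 (-3.45 and -3.67) and the kinase PBK (-3.24 in CD44lo cells). Of 29 other kinetochore and centromere genes, 23 and 24 fell, with medians of -1.56 and -1.46, among them KNL1, the scaffold that docks BUB1 (-2.61 and -2.58), and the cohesin protector SGO1 (-2.44 and -3.15). Centrosome and spindle pole genes fell in 15 of 19 in each fraction, with medians of -0.94 and -0.93, CEP55 furthest (-2.50 and -2.47). Of 18 genes of condensin, cohesin and chromosome structure, 9 fell in each fraction, including the condensin subunit NCAPH (-3.14 and -3.01) and topoisomerase TOP2A (-2.50 and -2.79). Of the subunits and regulators of the anaphase-promoting complex, 3 of 16 fell in each fraction, a share close to that of all tested genes, and the medians were -0.16 and -0.25. UBE2S, the enzyme that extends ubiquitin chains (-1.95 and -1.35), and the inhibitor FBXO5 (-1.67 and -1.78) were among the 3 in each, with CDC27 (-0.59) in CD44lo and CDC23 (-0.48) in CD44hi cells. After epirubicin 0 genes of these 5 lists were called in either fraction, with medians between -0.42 and -0.08. Of all tested genes 2.82% were called in epirubicin CD44lo and 6.42% in epirubicin CD44hi cells.

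After hypoxia, lists of other cell cycle steps had smaller medians than the 47 genes. Of 36 DNA replication genes, 35 fell in hypoxia CD44lo and 33 in CD44hi cells, with medians of -1.70 and -1.56, among them MCM10 (-2.66) and the polymerase subunit POLE2 (-2.56 and -2.52). The mean of these genes on each array, -1.72, -0.86, -1.86 and -2.30 in hypoxia CD44lo and -2.14, -0.98, -1.58 and -1.69 in CD44hi cells, was highest on the arrays numbered 2 in both fractions. After epirubicin no gene of this list was called, against 2.82% of all tested genes in CD44lo and 6.42% in CD44hi cells. The medians were -0.40 in CD44lo and -0.47 in CD44hi cells, with 29 and 34 of 36 genes below 0. Both medians were lower than those of the 47 mitotic genes (-0.15 and -0.31). Of 22 E2F, DREAM and MuvB factors, 8 fell and 2 rose in CD44lo cells and 7 fell and 2 rose in CD44hi cells. The medians were -0.35 and -0.39. Of all tested genes 11.7% fell and 10.7% rose in CD44lo cells, and 14.1% fell and 12.8% rose in CD44hi cells. The count of rises in this list was thus near the background. MYBL2, which joins MuvB to activate mitotic genes, fell (-2.98 and -2.86), as did E2F2 (-2.16 and -2.20), and CDKN1A rose. Of 7 G1 cyclins and kinases, 3 fell and 1 rose in CD44lo cells and 1 fell and 1 rose in CD44hi cells, where 14.1% of all tested genes fell and 12.8% rose, so the count in CD44hi cells is at the background. CCND3 fell (-1.16 and -1.25) and CDK6 rose (1.55 and 1.55), and CDK6 also rose in epirubicin CD44hi cells (1.00, adjusted p 0.0138), the only call of these lists after epirubicin. TOP2A, a target of epirubicin, differed from untreated cells by 0.21 ± 0.57 and 0.05 ± 0.57 after the drug, not called.

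**Figure D5:**
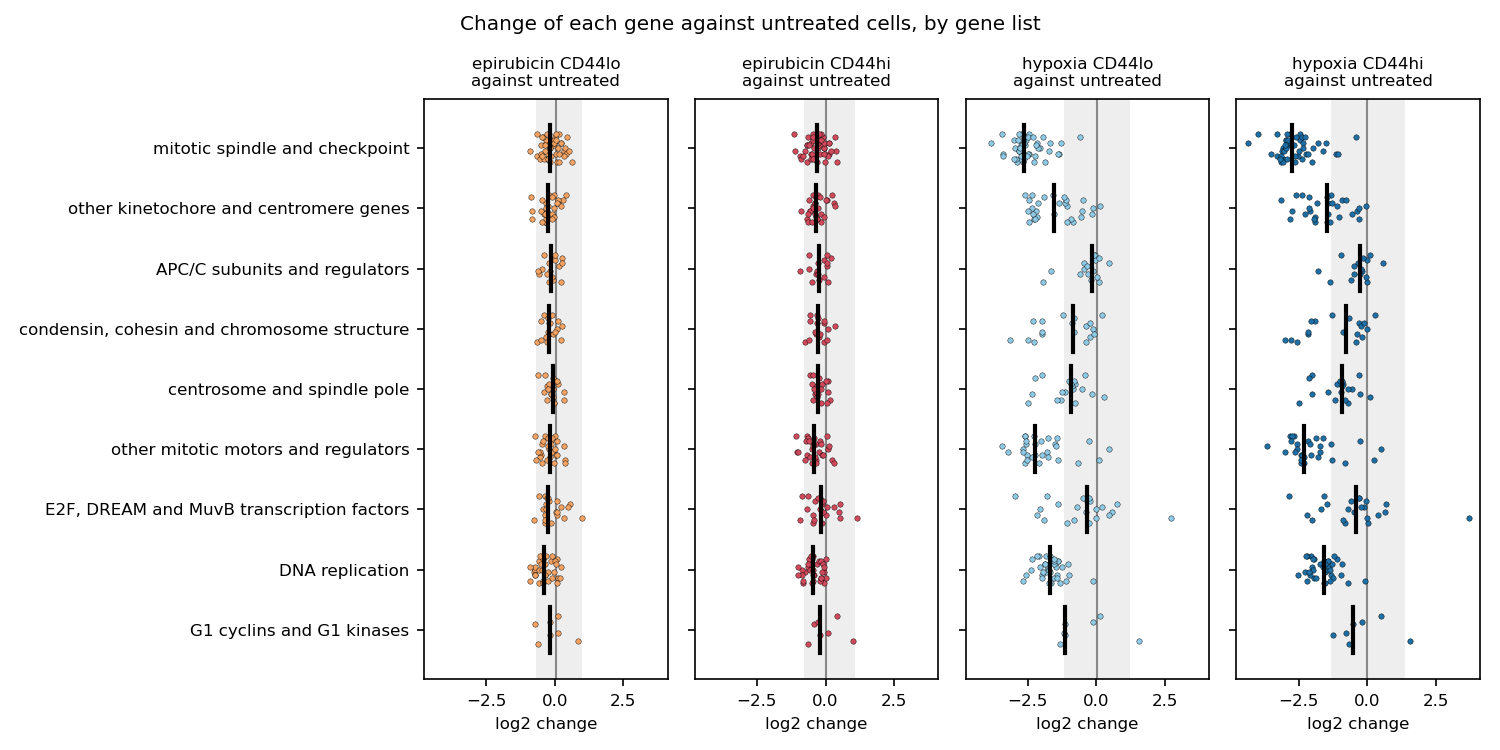
Log2 change against untreated cells of each measured gene (points) in the mitotic group and 8 other lists, 1 panel for each sorted group, with the list median as a black bar, the median of all tested genes as a grey line and their 5th to 95th percentile as a grey band. In the hypoxia panels the mitotic genes have medians of -2.64 and -2.75, DNA replication genes -1.70 and -1.56 and the anaphase-promoting complex -0.16 and -0.25, while in the epirubicin panels the DNA replication genes have the lowest medians of the 9 lists drawn, -0.40 and -0.47.

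Outside the 47 genes, the transcripts whose log2 values followed the mean of the group most closely over the 19 arrays were DEPDC1 (Pearson r = 0.9912), SPAG5 (0.9881), KNL1 (0.9863), GTSE1 (0.985), KIF18B (0.984), CDKN3 (0.9837), PARPBP (0.9836) and MELK (0.9832). The lowest correlations were with AK4 (-0.9428), RIMKLA (-0.9419), PPP1R21 (-0.9414) and BNIP3L (-0.9386). These are descriptions over arrays that share 5 groups, mostly set by the step between the hypoxia arrays and the rest.

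More than 1 probe set names 23 of the 47 genes, with 38 probe sets besides those used, and 35 of the 38 were also lower in both hypoxia groups. The 3 exceptions were dim. The second CCNB2 probe set had mean signals of 9.83 ± 5.55 (SD, n = 3) untreated, 19.3 ± 11.7 (n = 4) in hypoxia CD44lo and 20.3 ± 6.61 (n = 4) in hypoxia CD44hi cells, where the brightest one had 325, 60.6 and 60.7. The others were a BUB1 probe set under the filter and the dimmest BUB3 probe set with means of 12.1 to 14.2 in all groups. For BUB3, the 4 bright probe sets gave changes of -0.33 to -0.76 in CD44lo and -0.40 to -0.76 in CD44hi cells, so all 4 placed it among the least changed of the group.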

How the data were processed

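RNA was labelled from 200 ng of total RNA, per the labels' protocols, and hybridised to whole-genome expression arrays with 54675 probe sets. The deposited values are linear intensity values that the authors computed with MAS5, per the submitters' processing notes, each array scaled to the same trimmed mean; the version is not given in the sources used here, and neither is depth, which arrays do not have. Each sample's group came from its labels. Probe sets were named through the platform annotation, those of 1 gene kept (41091 of 54675), and the brightest over the 19 arrays used for each gene, with probe sets prone to cross-hybridisation (PTTG1, CENPA and FOXM1) only where no other existed. Signals were taken as log2(signal + 4.2), 4.2 being the 25th percentile of all signals, and genes reaching 16.9, the median signal, on at least 3 arrays were tested.

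Differences were fitted with limma 3.58.1 (R 4.3.3) over all 5 groups and all 12925 genes, with Benjamini-Hochberg adjustment and a threshold of 0.05. The fit was also run on simulated data, in which each gene had the same spread in every group, unlike these arrays. Plots and counts used Python 3.11.15 with pandas 2.3.3, numpy 2.4.6 and matplotlib 3.10.9. Members and gene lists were chosen with earlier results of these data known. The text names all 47 members, up to 4 called genes with the largest change of each other list, CD44, CDKN1A and TOP2A, and the 8 genes most like and 4 least like the members' mean; COL1A1, CSF1R, CDH5 and other markers come from fixed marker lists. Intervals and adjusted p-values cover only the spread between these arrays. Levels of different probe sets were not compared. Promoters were those of RefSeq, 250 bases before to 50 after each start, and motifs were searched on both strands.

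Same-numbered epirubicin CD44lo and CD44hi arrays deviated together (r = 0.375, 0.546, 0.114 and 0.461 over all tested genes), weakly for number 3. Same-numbered hypoxia CD44lo and CD44hi arrays did not all do so (-0.04, 0.633, 0.279 and 0.543). Some same-numbered CD44lo arrays of epirubicin and hypoxia also did (0.367, 0.364, -0.07 and 0.182). The labels do not say that a number marks a pair. The main fit did not pair the arrays, and pairing by number entered only as a replicate block among the alternatives. Alternatives were the offset (1 and 16), no filter, quantile normalization, other probe sets, no variance trend, the compared groups alone, a replicate block, the hybridisation controls as a covariate, and leaving out arrays.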

Additional observations from a re-analysis of the deposited data

Results flagged for a closer look

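In groups of 4 arrays, 18 values of the 192 groups examined stood further from the nearest other array than Dixon's 95% limit allows, and chance alone flags about 1 in 20 groups. Of these, 10 were on epirubicin CD44hi array 4 and 6 on epirubicin CD44lo array 4, all low. On CD44hi array 4 the low signals were KIF20A at 96.7 (the others 275.5 to 336), TPX2 at 259.9 (621 to 732), CCNB1 at 418 (937 to 1063), CENPA at 90.9 (189.6 to 205), KIF11 at 62.2 (158 to 186), KIF14 at 30.9 (80.8 to 84.4), NUF2 at 32.8 (154 to 180.3), PLK1 at 88 (185 to 191), MAD2L1 at 209.8 (639.8 to 699.7) and HMMR at 115 (327 to 400.1). On CD44lo array 4 they were CCNB1 at 722 (1005 to 1030), CDC20 at 354 (450.4 to 467), KIF18A at 64.1 (124 to 138), MAD2L1 at 337 (660.1 to 729) and HMMR at 246 (365 to 382), together with the mean of the 47 genes at -0.42 (-0.03 to 0.03 on the other 3). The remaining 2 were high and on other CD44lo arrays of epirubicin, CDCA8 at 92.5 on array 2 (50.2 to 55.4 on the others) and CKS2 at 2240.7 on array 1 (1693 to 1746). None of the hypoxia groups had such a value among the 47 genes.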

How the results depend on the processing

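Leaving out each array in turn gave 45 to 47 genes called lower in hypoxia CD44lo cells, 45 to 46 in hypoxia CD44hi cells, 45 to 46 between the CD44lo groups and 43 to 45 between the CD44hi groups, and 0 to 0 for every other count. In epirubicin CD44hi cells 1 gene was called lower with an offset of 16 (KIF15, adjusted p 0.0460) and 1 in the compared groups alone; in epirubicin CD44lo cells the compared groups alone gave 2 lower and 1 higher. CCNB2 turned positive by its dim second probe set, 0.68 in hypoxia CD44lo and 0.83 in CD44hi cells against untreated, and 0.50 and 0.79 against the epirubicin groups. The cause was not tested. A replicate block over all arrays, which pairs arrays by number, gave 47 genes lower in hypoxia CD44lo and 46 in CD44hi cells (BUB3 added, adjusted p 0.0276), 46 and 45 against the epirubicin groups and 0 elsewhere, with epirubicin medians of -0.01 and -0.19; it changed no other call. The single-gene tally covers each gene and comparison called in the main fit or under an alternative. Of these values under the alternatives, 3537 kept their side of the threshold, 27 lost and 12 gained a call. The 4 values of CCNB2 named above reversed. Direction was checked only where the gene was called in the main fit. BUB3 was also called in hypoxia CD44hi cells without array 3 (adjusted p 0.0412), and ANLN by its second probe set (0.0265) and in the compared groups alone (0.0223). Precision is limited by 3 or 4 arrays a group, and by low signals after hypoxia, where offsets of 1 and 16 moved the CD44lo median from -2.77 to -2.31.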
